A study of Mus musculus with 12 samples.

Results

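The genes described here are 37 mouse genes that build fatty acids and join them to glycerol to make triglyceride. They are a list of gene names grouped by function, and a row of the deposited table counted as a member when its gene symbol, or a symbol listed in that row among others, was the gene. All 37 were found among 37754 gene models with values, and all 37 passed the filter on low values described below. They fall into 7 roles: supply of acetyl-CoA and NADPH, carboxylation and chain building, desaturation and elongation, glycerolipid assembly, acyl-CoA synthetases, fatty acid uptake and carriage, and transcription factors. RNA was sequenced from whole mammary glands of single parous C57BL/6 females, in 4 groups of 3 libraries. JNKWT mice carried a Wap-Cre transgene alone, and JNKKO mice carried Wap-Cre with Mapk8 LoxP/LoxP and Mapk9 LoxP/LoxP alleles, the genes of the kinases JNK1 and JNK2. The Cre transgene, which all 4 groups share, is driven by the Wap milk protein promoter and acts in the mammary epithelium during lactation, so that the other cells of the gland keep both kinase genes. Females were bred at 10 to 12 weeks of age, nursed litters of 6 to 8 pups for 9 days, and were taken either at removal of the pups (day 0) or after 3 days of involution (day 3). The comparisons ask how these genes change when lactation stops, and whether JNK in the epithelium alters that change. Libraries are called here by the numbers of the deposited columns, 1, 2 and 3 for both day 0 groups, 3, 6 and 12 for JNKWT day 3 and 3, 4 and 6 for JNKKO day 3. Per the study's legends each library of a group came from its own mouse, and RNA was taken from frozen pieces of the gland.

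The lactating mammary gland is among the most active sites of fatty acid synthesis in a mammal. Citrate from mitochondria is cleaved to acetyl-CoA by ATP citrate lyase (Acly), carboxylated to malonyl-CoA by acetyl-CoA carboxylase (Acaca, Acacb), and condensed into palmitate by fatty acid synthase (Fasn). In rodent mammary epithelium a separate enzyme, thioesterase II (Olah), releases the growing chain early and so yields the medium-chain fatty acids of milk. Desaturases and elongases then modify the chains, acyltransferases and lipins add them to glycerol 3-phosphate, and the diacylglycerol acyltransferases Dgat1 and Dgat2 complete triglyceride, which the epithelium secretes as milk fat droplets. Adipocytes, which fill the gland again during involution, use most of the same enzymes to store fat.

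The upstream sequences of a pair of members are shown because these genes stand at the centre of the comparisons below: Olah, the member called between genotypes on both scales, and Fasn, whose product it acts with. The sequences are the 250 bases before the transcription start site in RefSeq (mouse build GRCm38.p6), read 5′ to 3′ on the gene's own strand. In Olah (chr2:3366570-3366819, minus strand) the capitals mark a match to TGANTCA, the AP1 motif. In Fasn (chr11:120824548-120824797, minus strand) they mark matches to CCAAT, the NF-Y motif, on either strand, the rightmost pair overlapping.
Olah: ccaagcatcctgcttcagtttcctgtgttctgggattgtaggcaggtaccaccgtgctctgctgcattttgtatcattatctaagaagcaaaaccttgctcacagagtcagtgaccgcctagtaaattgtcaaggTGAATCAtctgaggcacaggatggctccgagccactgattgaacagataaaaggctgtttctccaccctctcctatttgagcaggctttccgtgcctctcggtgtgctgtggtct
Fasn: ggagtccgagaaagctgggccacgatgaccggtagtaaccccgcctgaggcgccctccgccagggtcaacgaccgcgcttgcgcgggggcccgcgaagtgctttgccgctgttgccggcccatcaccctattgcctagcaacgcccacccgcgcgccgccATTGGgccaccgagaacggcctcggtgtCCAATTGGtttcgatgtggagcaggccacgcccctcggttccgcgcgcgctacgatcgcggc
Upstream sequences were matched for 30 of the 37 members, and 6 motifs were searched on both strands, counting each gene a single time over its start sites. CCAAT was held by 18 of 30 members (60%) and by 37.5% of 27025 genes. The Sp1 motif GGGCGG, which may overlap a CCAAT match, was held by 19 of 30 (63.3%) and by 35.4% of all genes. TGANTCA was held by Olah and Lpin3 among the members (6.67%) and by 7.82% of all genes. The sterol response motif TCACNCCAC was held by Mlxipl and Acsl1 (6.67%) and by 1.22% of all genes, the E-box CACGTG by 3 members (10%) and 6.86% of all genes, and the GAS motif TTCNNNGAA by 1 member (3.33%) and 8.13% of all genes. These matches describe letters in a window and were not tested for binding.

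Values are FPKM, fragments mapped per kilobase of transcript, scaled to the mapped fragments of the library, so that levels can be compared between genes. Because milk protein transcripts fill lactating libraries, every comparison is given on 2 scales: FPKM as deposited, and FPKM divided by the library's median ratio to the geometric mean over all 12 libraries. The 14 milk genes took 57.3% to 77.1% of the summed FPKM on day 0, 1.61% to 6.14% in JNKWT on day 3 and 8.85% to 39.1% in JNKKO on day 3. The scaling factors ran from 0.307 to 0.579 on day 0 and from 1.38 to 2.80 on day 3. Changes are log2 differences of FPKM + 0.1, which understates the changes of low genes, tested across 14512 genes with limma and adjusted by the Benjamini-Hochberg method, and a gene is "called" at an adjusted p under 0.05. A pair of day 0 libraries needs mention. Library 1 of JNKWT day 0 correlated with libraries 2 and 3 at 0.861 and 0.851 over log2 values of all genes tested, against 0.950 between those libraries. In the library labelled JNKKO day 0 library 3, Mapk8 stood at 2.78 FPKM and Mapk9 at 8.78, inside or above the JNKWT day 0 ranges of 1.95 to 2.65 and 2.48 to 10.2, while libraries 1 and 2 of that group held 0.986 and 0.965 FPKM of Mapk8 and 4.86 and 4.33 of Mapk9. On day 3, Mapk8 ranged from 6.57 to 7.90 FPKM in JNKWT and from 1.25 to 3.57 in JNKKO, and Mapk9 from 16.1 to 18.1 and from 5.26 to 10.5. Neither gene passed the test between genotypes on day 3 (Mapk8, -1.60, adjusted p = 0.0510; Mapk9, -1.06, adjusted p = 0.199), and the deposited value covers the whole gene and all cells of the gland. Results are given without these libraries where that matters.

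The 37 genes changed in both directions from lactation to involution. In JNKWT glands as deposited, 17 members rose from day 0 to day 3, 4 fell and 16 were not called, whereas 91.5% of all genes tested were called higher and 1.34% lower. Their median change was 0.85 against 2.37 for all genes. In JNKKO glands 10 members rose, 8 fell and 19 were not called, against 80% and 1.37% of all genes, with medians of 0.02 and 1.68. After scaling, 5 members rose and 19 fell in JNKWT, where 19.3% of all genes were called higher and 16.1% lower, and 1 rose and 23 fell in JNKKO, where 11.5% and 9.55% were. The medians of the members were then -1.65 and -1.73, beside 0.07 and 0.05 for all genes. Without library 1 of JNKWT day 0, 91% of all genes were called higher in JNKWT and 1.85% lower as deposited, with 13 members higher and 12 lower. After scaling without it, 23.4% were called higher and 23% lower, with 6 members higher and 25 lower. With the luminal epithelial genes as the reference for scaling, the members called higher were 2 in JNKWT and 0 in JNKKO, since the scaled rises of Fads3 (0.21, adjusted p = 0.612), Lpin2 (0.13, adjusted p = 0.771) and Mlxipl (1.65, adjusted p = 0.0661) in JNKWT and of Agpat3 in JNKKO (0.03, adjusted p = 0.958) were not called there. The share of all genes called with that reference was not recorded, so these counts cannot be set against it. Below, a gene is said to rise or fall without naming a scale only where it was called in the same direction on both.

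**Figure D1:**
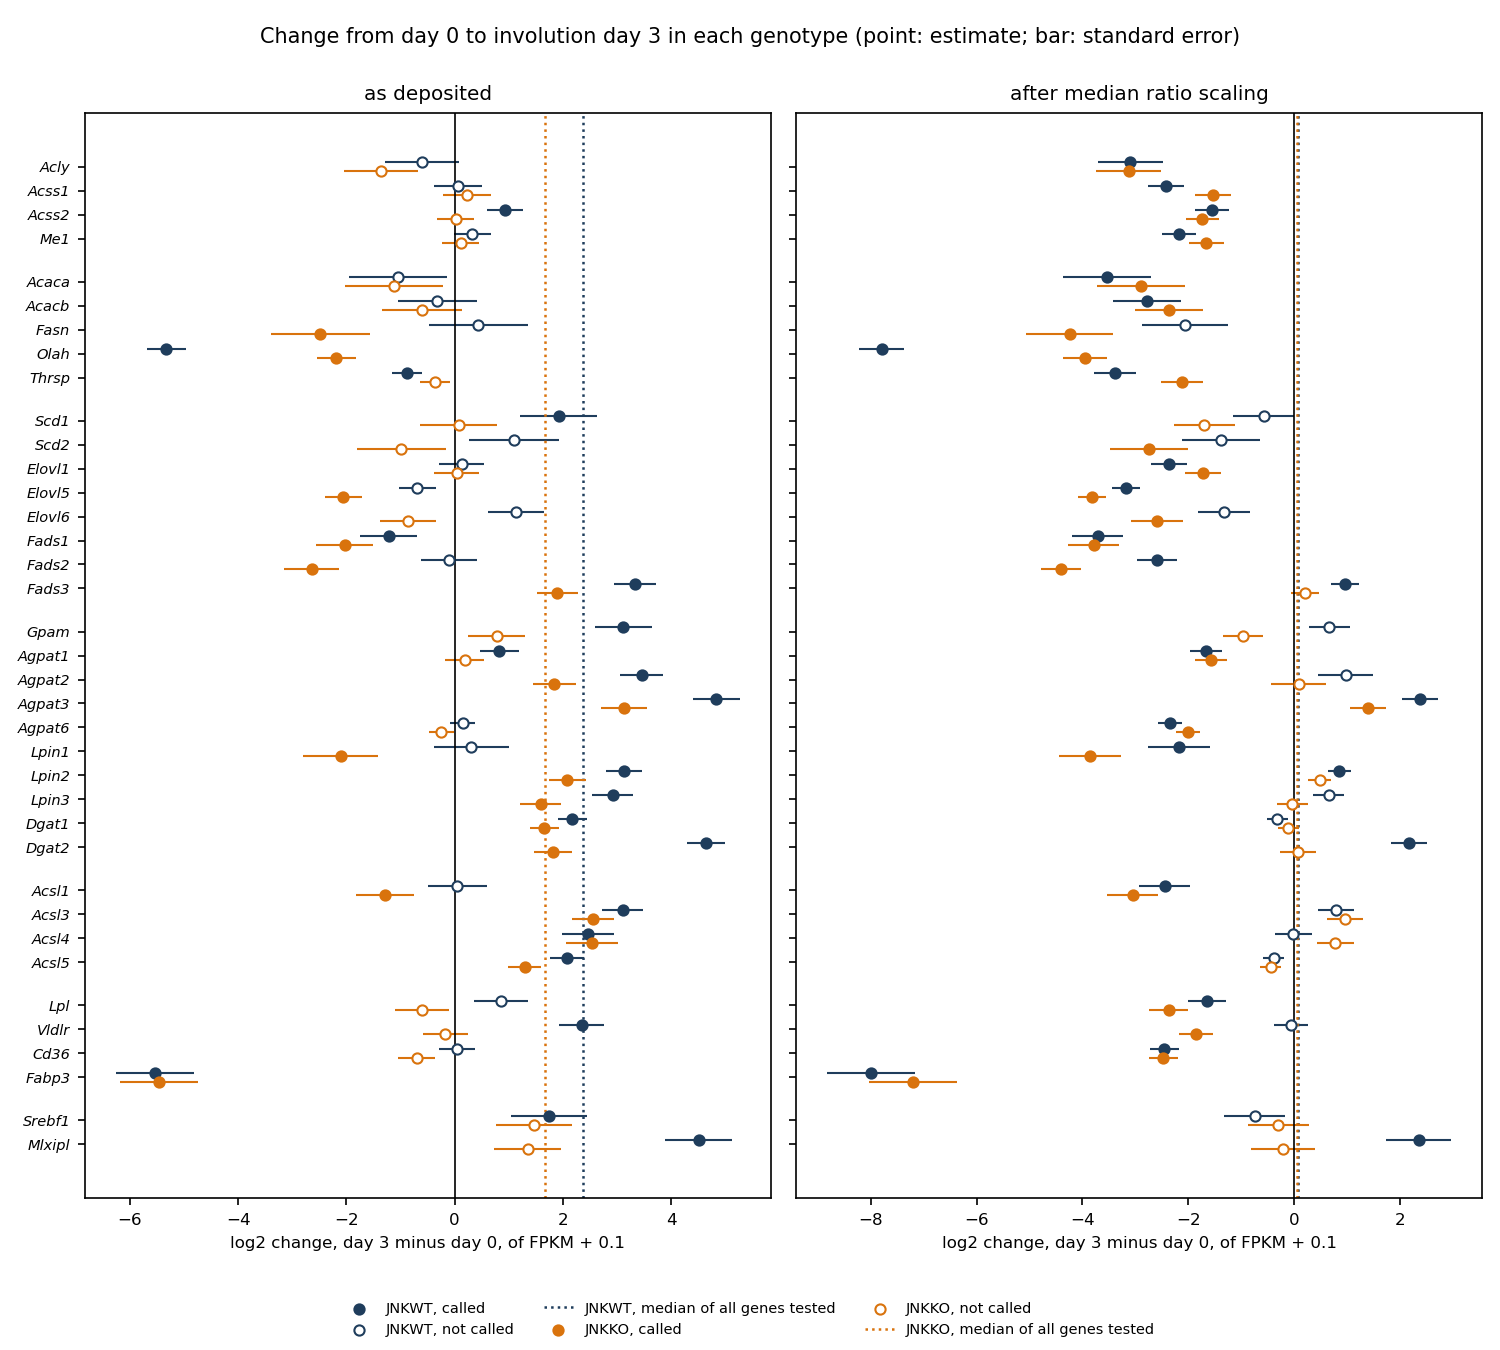
Log2 change of FPKM + 0.1 from day 0 to day 3 for the 37 genes, grouped by role, in JNKWT (blue) and JNKKO (orange), as deposited (left) and after median ratio scaling (right); points are estimates from 3 libraries a group, bars are standard errors, filled points are called and dotted lines give the median of all 14512 genes. Olah and Fabp3 lie farthest to the left, and most members lie left of the dotted line of their genotype.

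Among the carboxylation and chain-building genes, Olah fell in both genotypes and had the largest change of the role in JNKWT. Olah (chr2:3341982-3366591, GRCm38, minus strand) stood at 326, 493 and 355 FPKM in JNKWT day 0 and at 270, 329 and 346 in JNKKO day 0. On day 3 it stood at 13.0, 13.8 and 4.70 FPKM in JNKWT and at 64.1, 67.3 and 74.9 in JNKKO. The day 3 libraries thus lay below all day 0 libraries in both genotypes, and the JNKKO day 3 libraries lay above every JNKWT day 3 library. Olah fell by 5.33 on the log2 scale in JNKWT (SE 0.36, adjusted p = 1.35e-06) and by 2.19 in JNKKO (SE 0.36, adjusted p = 0.000214), and after scaling by 7.80 and 3.96. Fasn (chr11:120805940-120824178) was 23.2, 426 and 544 FPKM in JNKWT day 0, 522, 611 and 439 in JNKKO day 0, 388, 147 and 235 in JNKWT day 3 and 119, 65.9 and 103 in JNKKO day 3. Fasn fell in JNKKO, by 2.48 as deposited (adjusted p = 0.0241) and by 4.24 after scaling (adjusted p = 0.00428). As deposited that call was lost without library 1 or 2 of day 0 (adjusted p = 0.0502 and 0.0615) or library 4 of day 3 (0.0719). In JNKWT, Fasn gave 0.44 as deposited (adjusted p = 0.645), and the estimate turned to -1.02 (adjusted p = 0.0234) without library 1 of day 0, in which Fasn was at 23.2 FPKM.

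Both acetyl-CoA carboxylases were low in the same library. Acaca, the carboxylase that commits acetyl-CoA to chain synthesis, was 8.34, 147 and 172 FPKM in JNKWT day 0 and 89.3, 114 and 148 in JNKKO day 0. On day 3 it was 43.3, 18.7 and 29.6 FPKM in JNKWT and 83.9, 28.2 and 60.8 in JNKKO, so that the genotypes overlapped. Acacb, whose product mainly makes malonyl-CoA at mitochondria, ranged from 2.58 to 32.5 FPKM on day 0 and from 7.42 to 23.0 on day 3. Neither was called as deposited, and both fell in both genotypes after scaling (Acaca by 3.53 and 2.89, Acacb by 2.78 and 2.36). In JNKKO these calls were lost without library 1, 2 or 3 of day 0 or library 4 or 6 of day 3 (adjusted p from 0.0506 to 0.119 for Acaca and from 0.0519 to 0.0917 for Acacb). Thrsp, a lipogenic cofactor also known as Spot 14, was 402, 284 and 365 FPKM in JNKWT day 0 and 299, 333 and 271 in JNKKO day 0. On day 3 it was 267, 174 and 142 FPKM in JNKWT and 271, 193 and 246 in JNKKO. Thrsp fell in JNKWT, by 0.89 as deposited (SE 0.27, adjusted p = 0.00843) and by 3.38 after scaling. In JNKKO, where all 5 members of the role were called lower after scaling, Thrsp was called on that scale alone. It was not low in library 1 of JNKWT day 0, where Fasn and Acaca were.

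The genes of acetyl-CoA and NADPH supply were mostly not called as deposited and fell after scaling. As deposited, 1 of 4 members was called higher in JNKWT, Acss2 (0.93, adjusted p = 0.0196), and none was called in JNKKO. Of all genes, 91.5% and 80% were called higher there. The Acss2 call was lost without library 1 of day 0 (0.58, adjusted p = 0.0638) or library 3 of day 3 (0.0962). After scaling, 4 of 4 fell in each genotype, beside 16.1% of all genes in JNKWT and 9.55% in JNKKO. Me1, malic enzyme, which yields NADPH, was 81.5, 172 and 186 FPKM in JNKWT day 0, 202, 216 and 127 in JNKKO day 0, 231, 161 and 138 in JNKWT day 3 and 204, 199 and 173 in JNKKO day 3. The 4 groups of Me1 overlapped on the deposited scale, and after scaling it fell by 2.17 in JNKWT and by 1.65 in JNKKO. Acly was 24.7, 168 and 247 FPKM in JNKWT day 0 and 133, 208 and 162 in JNKKO day 0. On day 3 Acly was 94.5, 53.9 and 57.9 FPKM in JNKWT and 99.9, 40.5 and 65.0 in JNKKO. After scaling Acly fell by 3.09 in JNKWT and by 3.13 in JNKKO. The acetyl-CoA synthetases Acss1 and Acss2, which activate free acetate, ranged from 5.48 to 25.1 FPKM over the 12 libraries.

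Scd1, the stearoyl-CoA desaturase that puts the double bond into oleate, was the most abundant member in each library but library 1 of JNKWT day 0, where Fabp3 was. Scd1 (chr19:44394451-44407709) was 170, 1041 and 1819 FPKM in JNKWT day 0 and 1611, 1604 and 894 in JNKKO day 0. On day 3 it was 2514, 2462 and 2842 FPKM in JNKWT and 710, 1861 and 2031 in JNKKO, every JNKWT library above every JNKKO library. Scd1 was called higher on day 3 in JNKWT as deposited (1.92, adjusted p = 0.0216), a call lost without library 1 of day 0 (0.92, adjusted p = 0.0824) or library 12 of day 3 (1.86, adjusted p = 0.0512), and not after scaling. Elovl5, an elongase of polyunsaturated chains, was 62.6, 148 and 185 FPKM in JNKWT day 0, 147, 207 and 161 in JNKKO day 0, 84.7, 60.2 and 80.0 in JNKWT day 3 and 40.7, 39.8 and 41.8 in JNKKO day 3. It fell in JNKKO by 2.05 as deposited (SE 0.35, adjusted p = 0.000255) and by 3.82 after scaling. In JNKWT it fell after scaling by 3.18, and as deposited its change of -0.69 was not called (adjusted p = 0.0762).

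Fads1, Fads2 and Fads3 lie side by side on chromosome 19. Fads1 and Fads2 encode the front-end desaturases of polyunsaturated fatty acids, and Fads3 had a pattern unlike theirs. Fads2 (chr19:10064164-10101503), the delta-6 desaturase, was 21.2, 89.8 and 141 FPKM in JNKWT day 0, 102, 116 and 98.7 in JNKKO day 0, 55.4, 66.1 and 59.5 in JNKWT day 3 and 14.2, 18 and 18.6 in JNKKO day 3. Fads2 fell in JNKKO by 2.64 as deposited (SE 0.51, adjusted p = 0.000629) and by 4.40 after scaling, and its JNKKO day 3 libraries lay below all the others. In JNKWT the scaled values of Fads2 were also lower on day 3: 69.3, 184 and 243 on day 0 and 23.1, 28.3 and 21.3 on day 3. Fads1, the delta-5 desaturase, fell in JNKKO by 2.03 as deposited (adjusted p = 0.004), from 117, 134 and 127 FPKM to 52.3, 23.3 and 23.8. In JNKWT its values were 32.1, 142 and 176 FPKM on day 0 and 39.7, 41.2 and 38.8 on day 3, and it fell by 3.71 after scaling. Its deposited call in JNKWT (-1.22, adjusted p = 0.0426) was lost without library 2 or 3 of JNKWT day 0, any library of JNKKO day 0 or any library of JNKWT day 3, with adjusted p values from 0.0523 to 0.187. Fads3, the third gene of the cluster, whose substrate differs from theirs, went the other way: it was 0.376, 1.07 and 1.03 FPKM in JNKWT day 0, 1.01, 0.882 and 1.38 in JNKKO day 0, 8.22, 6.17 and 12.1 in JNKWT day 3 and 3.61, 4.76 and 4.54 in JNKKO day 3. Fads3 rose in JNKWT by 3.33 as deposited (adjusted p = 9.33e-06) and by 0.97 after scaling (adjusted p = 0.0163, or 0.0712 without library 12 of day 3). In JNKKO it was called higher as deposited (1.90). Of the others in this role, Elovl1 ranged from 20.2 to 84.8 FPKM, Scd2 from 3.18 to 59.6 and Elovl6 from 2.21 to 21.0. In all, 2 of 8 rose and 1 fell in JNKWT as deposited, beside 91.5% and 1.34% of all genes, and 1 rose and 3 fell in JNKKO, beside 80% and 1.37%. After scaling these counts were 1 and 4 in JNKWT, beside 19.3% and 16.1%, and 0 and 6 in JNKKO, beside 11.5% and 9.55%.

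The glycerolipid assembly genes include the acyltransferase Dgat2, which was called between genotypes on day 3 as deposited and not after scaling. As deposited, 8 of 10 members rose and none fell in JNKWT, where 91.5% of all genes were called higher, and 6 rose and 1 fell in JNKKO, where 80% were. After scaling 3 rose and 3 fell in JNKWT, beside 19.3% and 16.1% of all genes, and 1 rose and 3 fell in JNKKO, beside 11.5% and 9.55%. Dgat2 (chr7:99153663-99182713), an endoplasmic reticulum and lipid droplet enzyme of the last step, was 1.80, 2.58 and 2.41 FPKM in JNKWT day 0 and 3.22, 3.06 and 6.44 in JNKKO day 0. On day 3 it was 85, 37 and 62.2 FPKM in JNKWT and 12.4, 16.5 and 14.6 in JNKKO. The groups did not overlap on day 3. Dgat2 rose in JNKWT by 4.64 as deposited (SE 0.35, adjusted p = 1.84e-06) and by 2.18 after scaling (adjusted p = 0.00075). In JNKKO it was called higher as deposited (1.82, adjusted p = 0.000639) and not after scaling. Dgat1, the other enzyme of that step, which shares no ancestry with it, was 8.84, 13.8 and 15.8 FPKM in JNKWT day 0, 15.8, 15.7 and 12.9 in JNKKO day 0, 66.1, 42.4 and 64.4 in JNKWT day 3 and 41.3, 45.7 and 53.6 in JNKKO day 3. The genotypes overlapped in Dgat1 on both days, and it was called higher in both genotypes as deposited (2.17 and 1.65) and in neither after scaling.

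Agpat3 (chr10:78269178-78352489), which acylates lysophosphatidic acid, rose in both genotypes on both scales. It was 1.38, 1.90 and 2.69 FPKM in JNKWT day 0 and 1.66, 1.47 and 3.90 in JNKKO day 0, and on day 3 it was 58.4, 49.95 and 65.1 FPKM in JNKWT and 10.6, 24.3 and 28.3 in JNKKO. Agpat3 rose by 4.83 in JNKWT (adjusted p = 2.66e-06) and by 3.13 in JNKKO (adjusted p = 6.73e-05) as deposited. After scaling it rose by 2.38 and by 1.40, and the latter (adjusted p = 0.0135) was lost without library 2 of day 0 (0.0654), library 4 of day 3 (0.0552) or library 6 of day 3 (0.0604), and stood at 0.050 without library 1 of day 0. Agpat2, of the same reaction, went from 8.22, 2.63 and 3.52 FPKM to 65.7, 31.7 and 51.5 in JNKWT and from 5.16, 5.85 and 7.18 to 20.9, 19.2 and 25.8 in JNKKO. Agpat1, again of the same reaction, was 10.7, 18.2 and 34.6 FPKM in JNKWT day 0, 32.0, 30.8 and 23.5 in JNKKO day 0, 38.2, 29.2 and 33.6 in JNKWT day 3 and 38.5, 24.8 and 35.9 in JNKKO day 3, and the 4 groups overlapped. Agpat1 was called higher in JNKWT as deposited (0.83, adjusted p = 0.0463), a call that held only in the fits without library 3 of JNKWT day 0 or library 4 of JNKKO day 3 among the 12 that left out a library (adjusted p up to 0.184). It fell after scaling by 1.66 in JNKWT and by 1.57 in JNKKO.

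Of the glycerol 3-phosphate acyltransferases, which begin the assembly, the mitochondrial enzyme Gpam went from 1.0, 4.66 and 5.84 FPKM to 28.6, 24 and 29.5 in JNKWT and from 4.07, 5.28 and 7.07 to 6.27, 10.2 and 12.3 in JNKKO. All JNKWT day 3 libraries lay above all JNKKO day 3 libraries. Agpat6, named Gpat4 in GENCODE and the enzyme needed for milk triglyceride in mice, ranged only from 19.7 to 35.9 FPKM over the 12 libraries and fell after scaling in both genotypes (by 2.34 and 2.01). The lipins, which turn phosphatidate into diacylglycerol, had unlike patterns. Lpin1 was 4.32, 39.7 and 44.0 FPKM in JNKWT day 0, 22.3, 37.8 and 56.8 in JNKKO day 0, 30.4, 19.9 and 24.2 in JNKWT day 3 and 7.35, 8.22 and 9.68 in JNKKO day 3. Lpin1 fell in JNKKO by 2.11 as deposited (adjusted p = 0.0149, or 0.0564 without the library labelled JNKKO day 0 library 3) and by 3.86 after scaling. In JNKWT it fell after scaling by 2.17 (adjusted p = 0.015), and that call was lost without library 2 or 3 of day 0 or library 12 of day 3 (adjusted p from 0.0506 to 0.0515). Lpin2 rose in JNKWT by 3.12 as deposited and by 0.86 after scaling (adjusted p = 0.0104), from 0.276, 0.415 and 0.469 FPKM to 3.45, 3.51 and 5.58, and stood at 0.554, 0.467 and 0.435 and then 1.58, 3.06 and 2.75 in JNKKO. Lpin3 ranged from 0.237 to 1.02 FPKM on day 0 and from 1.53 to 4.65 on day 3. The deposited loci of Lpin2, Lpin3, Agpat1 and Agpat2 are more than 1.5 times as long as the annotated genes, and whether reads of neighbours entered their values was not tested.

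Among the acyl-CoA synthetases, which activate free fatty acids, Acsl1 and Acsl4 had unlike patterns. Acsl1, the main form in tissues that store or burn fat, was 62.7, 294 and 332 FPKM in JNKWT day 0, 184, 228 and 316 in JNKKO day 0, 247, 133 and 208 in JNKWT day 3 and 139, 78.8 and 82.9 in JNKKO day 3. After scaling it fell by 2.45 in JNKWT (adjusted p = 0.0031) and by 3.05 in JNKKO (adjusted p = 0.00143). As deposited Acsl1 fell in JNKKO by 1.29 (adjusted p = 0.0442), and 5 of the 12 fits that left out a library lost that call, with adjusted p values up to 0.129 (library 2 or 3 of JNKKO day 0, library 4 or 6 of JNKKO day 3, library 12 of JNKWT day 3). Acsl4, which prefers arachidonate, was 2.52, 11.8 and 13.4 FPKM in JNKWT day 0, 12.2, 10.8 and 9.79 in JNKKO day 0, 41.4, 42.9 and 39.6 in JNKWT day 3 and 53.2, 70.2 and 69.8 in JNKKO day 3. All JNKKO day 3 libraries lay above all JNKWT day 3 libraries, and Acsl4 was called higher from day 0 to day 3 in both genotypes as deposited (2.46 and 2.54) and in neither after scaling. Acsl5 (2.58 to 4.45 FPKM on day 0, 6.34 to 21.4 on day 3) and the row that holds Acsl3 together with Utp14b (0.214 to 0.666, then 2.22 to 5.04) were also called higher in both genotypes as deposited. The value of the shared row cannot be assigned to either gene.

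Of the uptake and carriage genes, Fabp3 had the largest fall of any member as deposited. Fabp3 (chr4:130308162-130359943), the fatty acid binding protein of muscle and of lactating mammary epithelium, was 464, 409 and 517 FPKM in JNKWT day 0 and 285, 399 and 383 in JNKKO day 0. On day 3 it was 23.1, 16.9 and 2.39 FPKM in JNKWT and 18.4, 4.06 and 6.53 in JNKKO. It fell by 5.54 and 5.46 as deposited and by 8.00 and 7.21 after scaling (adjusted p up to 0.000217), and the genotypes overlapped on day 3. Fabp3 is also a muscle gene, and the summed FPKM of the skeletal muscle markers in libraries 3, 6 and 12 of JNKWT day 3 was 6990, 7093 and 470, lowest where Fabp3 was lowest. In libraries 3, 4 and 6 of JNKKO day 3 the sum was 15.1, 16.9 and 136, lowest where Fabp3 was highest. Their part in the value was not tested. Lpl, lipoprotein lipase, was 76.1, 299 and 344 FPKM in JNKWT day 0, 267, 346 and 291 in JNKKO day 0, 422, 239 and 457 in JNKWT day 3 and 152, 188 and 270 in JNKKO day 3. Lpl was called in neither genotype as deposited and fell in both after scaling (by 1.65 and 2.37). Cd36, a fatty acid transporter, ranged from 147 to 264 FPKM on day 0 and from 99.1 to 311 on day 3. Vldlr (chr19:27216484-27254231), a receptor that holds triglyceride-rich particles at lipoprotein lipase, was 0.703, 1.98 and 1.87 FPKM in JNKWT day 0, 2.43, 2.37 and 1.96 in JNKKO day 0, 9.67, 8.35 and 5.13 in JNKWT day 3 and 1.40, 1.76 and 3.15 in JNKKO day 3. The JNKKO day 3 libraries overlapped the day 0 libraries, and every JNKWT day 3 library lay above them. Vldlr was called higher in JNKWT as deposited (2.35, adjusted p = 0.000203) and lower in JNKKO after scaling (-1.86, adjusted p = 0.00249).

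The members include a pair of transcription factors, both called higher on day 3 in JNKWT as deposited, as were 91.5% of all genes. Srebf1, which encodes the sterol-regulated activator of Fasn, Acaca and Scd1, was 4.53, 41.4 and 47.5 FPKM in JNKWT day 0, 17.5, 19.8 and 41.4 in JNKKO day 0, 79.9, 59.2 and 72.0 in JNKWT day 3 and 55.2, 71.1 and 77.9 in JNKKO day 3. The genotypes overlapped in Srebf1 on day 3. Its JNKWT call (1.74, adjusted p = 0.0307) was lost without library 1 of day 0 (0.65, adjusted p = 0.0743), library 3 of day 3 (0.0713) or library 12 of day 3 (0.0634). Mlxipl (chr5:135106891-135138382), which encodes the carbohydrate-responsive activator ChREBP, was 0.118, 0.260 and 0.299 FPKM in JNKWT day 0, 0.250, 0.317 and 1.44 in JNKKO day 0, 13.3, 5.99 and 4.45 in JNKWT day 3 and 0.775, 2.79 and 1.38 in JNKKO day 3. Mlxipl rose in JNKWT by 4.51 as deposited (SE 0.62, adjusted p = 2.93e-05) and by 2.36 after scaling (adjusted p = 0.0123, or 0.0518 without library 3 of day 3). Its highest day 0 value was in the library labelled JNKKO day 0 library 3, at the level of the JNKKO day 3 libraries.

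**Figure D2:**
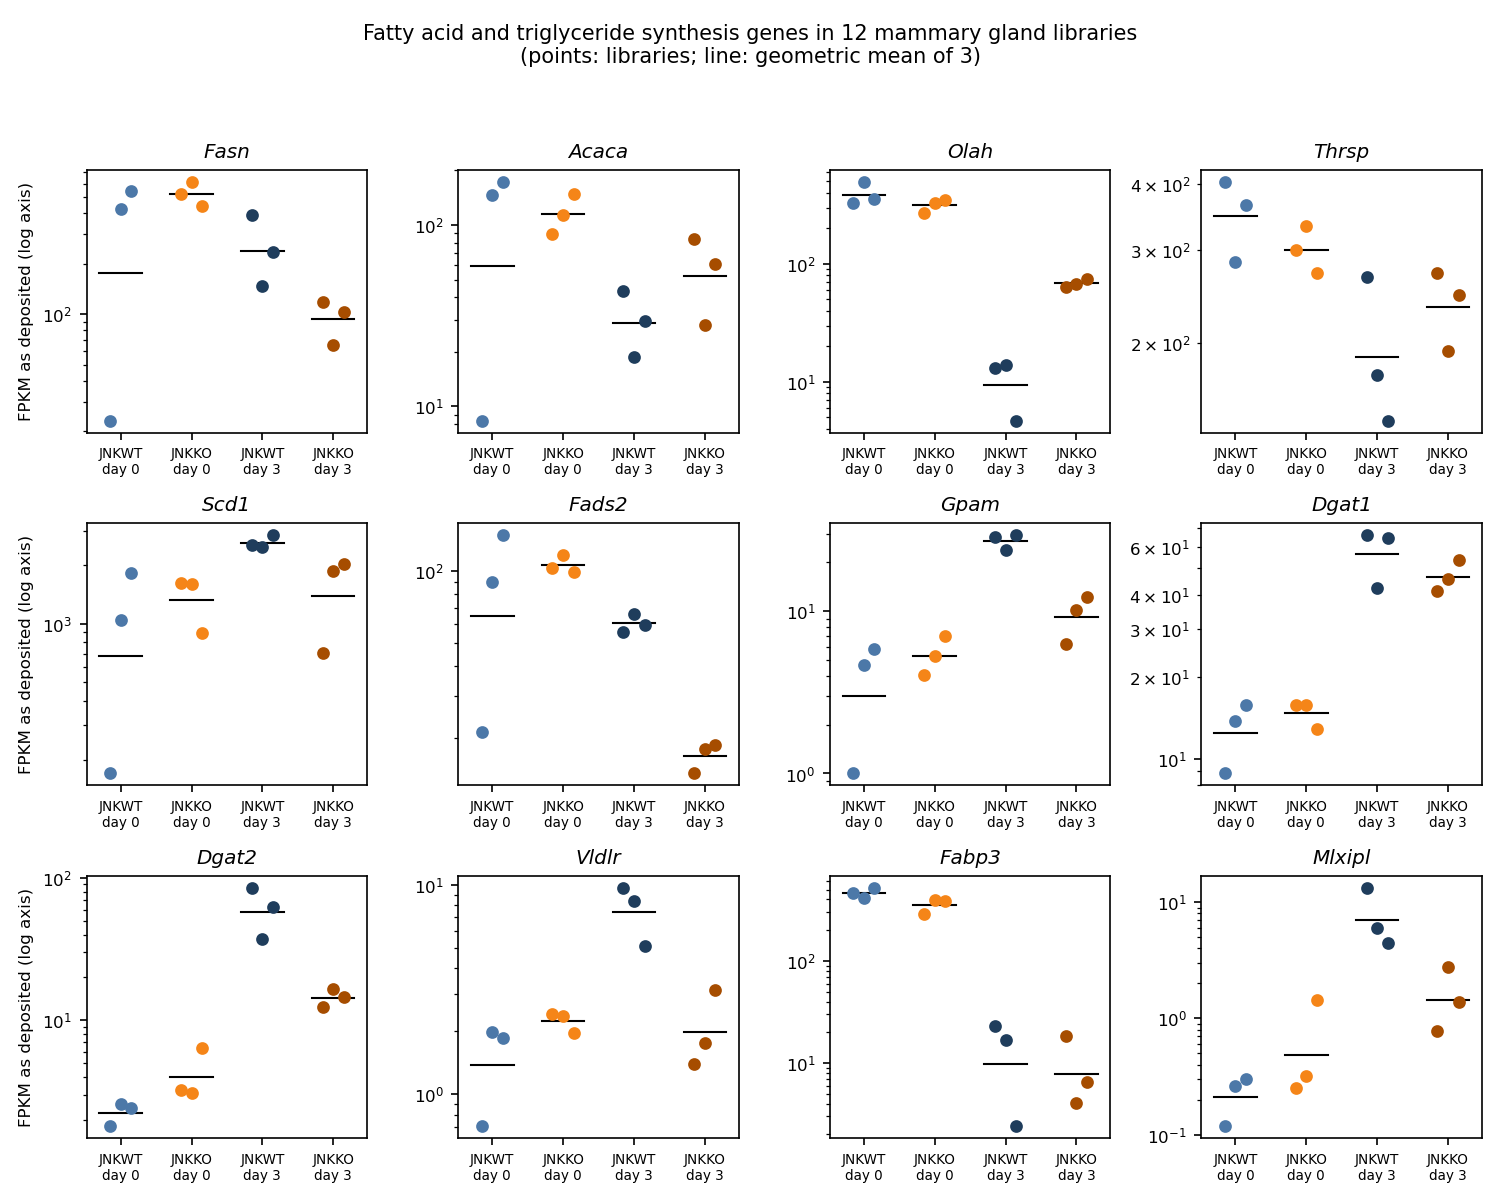
FPKM as deposited (log axis) of 12 members in the 4 groups; each point is a library, in the order of library numbers, and the line is the geometric mean of 3. Library 1 of JNKWT day 0 stands below its group in Fasn, Acaca, Scd1, Fads2, Gpam and Vldlr and close to it in Olah, Thrsp and Fabp3, and on day 3 the JNKKO points lie above the JNKWT points in Olah and below them in Fasn, Scd1, Fads2, Gpam, Dgat2, Vldlr and Mlxipl.

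On day 0 no member was called between genotypes on either scale. As deposited the genotypes overlapped in 35 of 37 members, the exceptions being Dgat2, above in JNKKO, and Fabp3, below, while 4.05% of all genes tested lay above and 3.84% below. In this comparison 0.00689% of all genes tested were called in each direction by limma, which is 1 gene each, and 450 had an unadjusted p under 0.05 as deposited and 940 after scaling. The median of the members was 0.51 higher in JNKKO as deposited, beside 0.18 for all genes. Without library 1 of JNKWT day 0, no member was called either, nor without the library labelled JNKKO day 0 library 3.

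On day 3, Olah was called higher in JNKKO on both scales, and Dgat2 and Vldlr were called lower as deposited only. Against all genes tested, of which 0.544% were called higher and 5.62% lower as deposited, 1 member was called higher and 2 lower. After scaling, where the shares of all genes were 0.338% and 0.117%, Olah alone was called. Olah was 7.17-fold higher in JNKKO as deposited (log2 difference 2.84, SE 0.36, adjusted p = 0.00555) and 3.33 higher on the log2 scale after scaling (SE 0.42, adjusted p = 0.00932). The scaled call was lost without library 3 (adjusted p = 0.0704) or library 6 (0.0577) of JNKKO day 3, and with the 10 luminal epithelial genes as the reference for scaling (2.92, adjusted p = 0.083), while the deposited call was kept in each of the 12 fits that left out a library. Dgat2 was 4.02-fold lower in JNKKO as deposited (log2 difference -2.01, SE 0.35, adjusted p = 0.0166) and -1.49 after scaling (adjusted p = 0.0851). The call was lost without library 3 of JNKWT (0.111) or library 3 of JNKKO (0.0777). Vldlr was 3.63-fold lower (-1.86, SE 0.42, adjusted p = 0.0284), with -1.33 after scaling (adjusted p = 0.0995). Its call was lost without library 3 (0.144) or 6 (0.10) of JNKWT or library 3 (0.130) or 4 (0.0734) of JNKKO.

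Several members stood beside these without passing the test. As deposited the log2 differences were -2.21 for Mlxipl (adjusted p = 0.0568), -1.83 for Fads2 (0.0554), -1.56 for Agpat3 (0.0529), -1.55 for Gpam (0.101), -1.54 for Lpin1 (0.196), -1.36 for Elovl6 (0.132) and -1.35 for Fasn (0.357), all by limma. Acaca, which precedes Fasn in the pathway, gave 0.86 (adjusted p = 0.537), Scd1 -0.90 (0.425) and Acsl4 0.63 (0.412). In 19 of 37 members every JNKKO library lay below every JNKWT library and in 2, Olah and Acsl4, above, while over all genes these shares were 43.9% and 2.81%. After scaling 10 members lay below and 6 above, against 15.2% and 17.7% of all genes. The median difference of the members was -0.78 as deposited and -0.26 after scaling, beside -0.48 and 0.01 for all genes.

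The number of members called on day 3 depended on library 1 of JNKWT day 0, which is in neither day 3 group but enters the estimate of the spread that all 4 groups share. In the fit without it, 17.8% of all genes were called lower and 1.29% higher as deposited, and 15 members were called lower and 2 higher. The lower members were Fasn, Elovl5, Elovl6, Fads2, Fads3, Gpam, Agpat2, Agpat3, Agpat6, Lpin1, Dgat2, Acsl1, Acsl5, Vldlr and Mlxipl, and the higher were Olah and Acsl4. After scaling, 1.94% of all genes were called lower and 3.42% higher in that fit, with Fads2, Gpam, Dgat2 and Vldlr lower and Olah and Acsl4 higher. Without the library labelled JNKKO day 0 library 3, the deposited counts were 4 lower and 1 higher, and the share of all genes was not recorded.

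**Figure D3:**
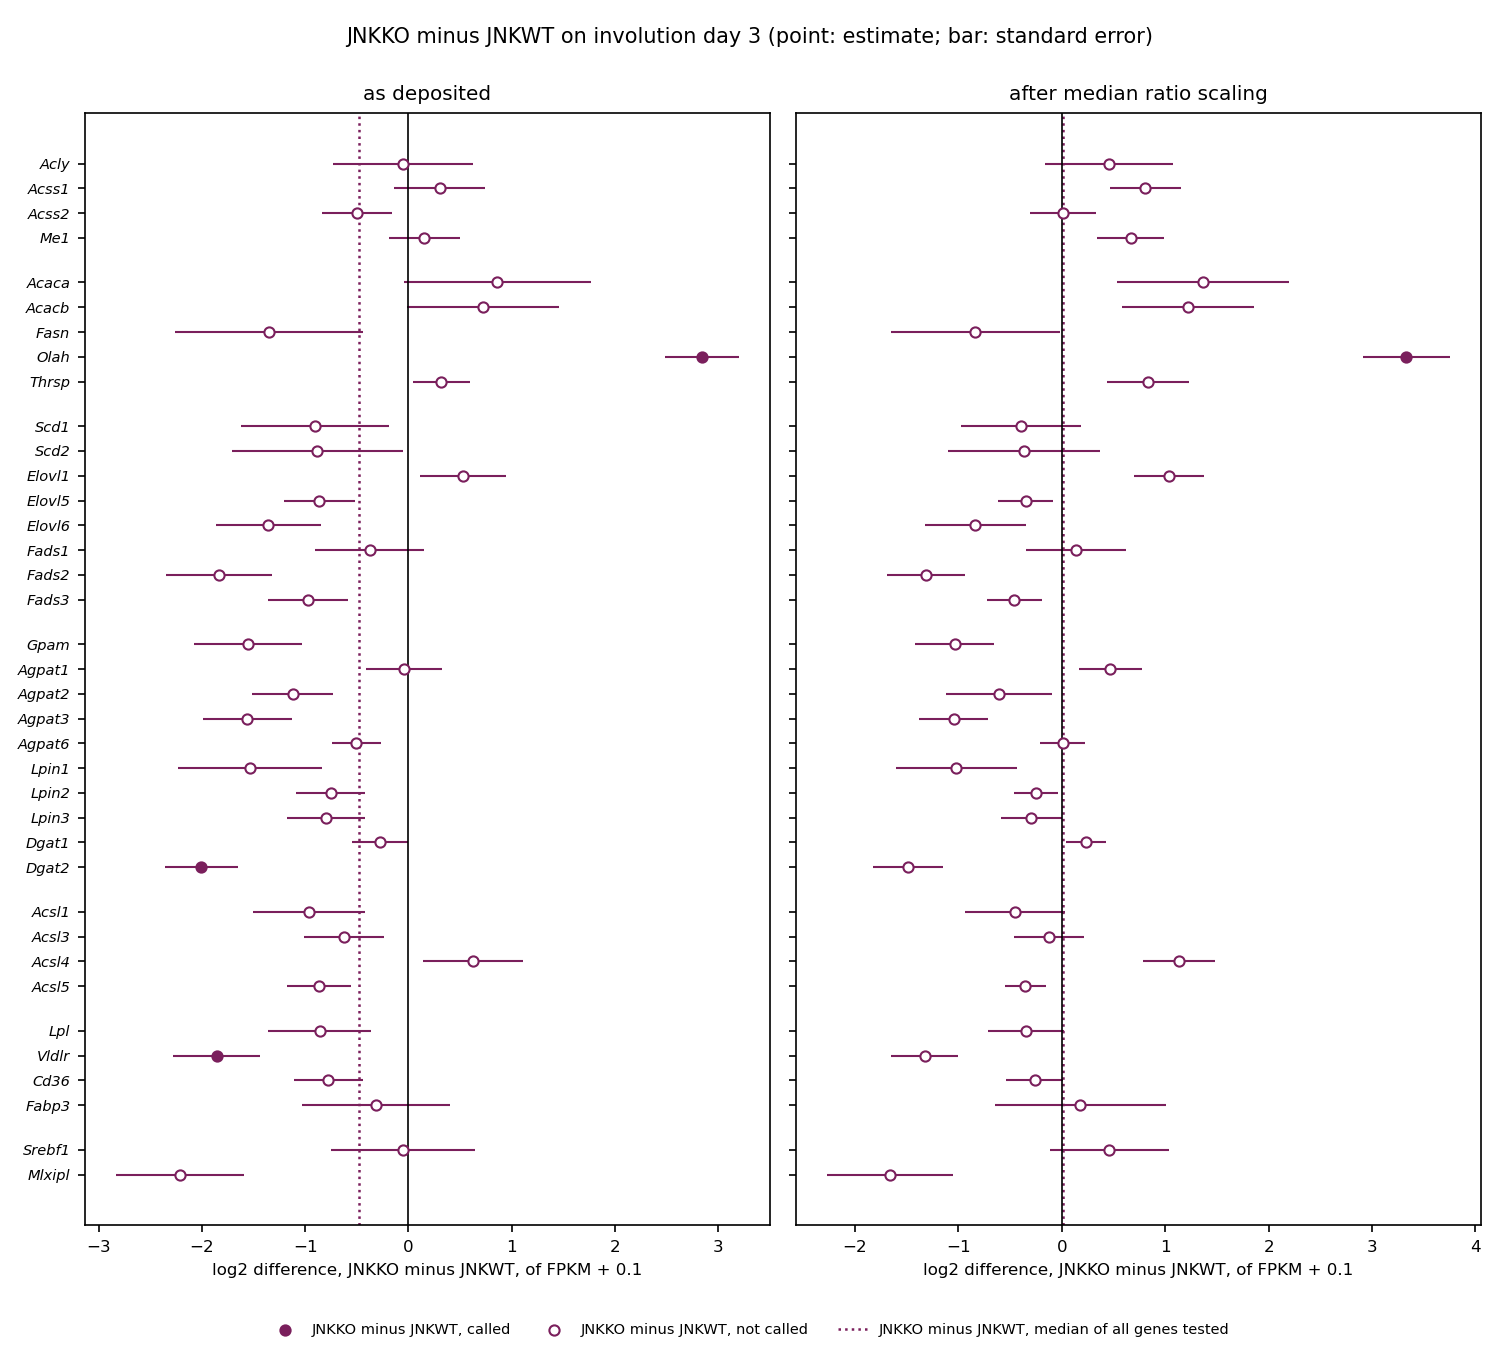
Log2 difference of FPKM + 0.1 between JNKKO and JNKWT on day 3 for the 37 genes by role, as deposited (left) and after median ratio scaling (right); points are estimates from 3 libraries a group, bars are standard errors, filled points are called and the dotted line is the median of all genes. Olah lies to the right at 2.84 and 3.33, and Dgat2, Vldlr and Mlxipl lie farthest to the left.

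Whether the change from day 0 to day 3 differed between genotypes was tested as an interaction, and no member was called on either scale, where 0.00689% of all genes were called in each direction. The largest estimates as deposited were -3.16 for Mlxipl (adjusted p = 0.112), 3.14 for Olah (0.0612), -2.92 for Fasn (0.256), -2.82 for Dgat2 (0.0612), -2.54 for Fads2 (0.12), -2.51 for Vldlr (0.0784), -2.42 for Lpin1 (0.229) and -2.34 for Gpam (0.143). Without library 1 of JNKWT day 0 no member was called as deposited, and the estimates of Fasn and Lpin1 were -1.46 (adjusted p = 0.169) and -1.34 (0.154). Without library 12 of JNKWT day 3, Olah (2.64, adjusted p = 0.0151), Dgat2 (-2.77, 0.0324) and Vldlr (-2.78, 0.0487) passed the threshold as deposited. The share of all genes called in that fit was not recorded, so these calls cannot be set against it. An unadjusted p under 0.05 was reached by 2705 of all genes as deposited and by 1887 after scaling.

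Ratios of 2 members within a library do not depend on the scale, and 4 of them were formed after the values had been seen, so they are given as descriptions with no test. The ratio of Olah to Fasn was 0.0336, 0.094 and 0.02 in JNKWT day 3 and 0.54, 1.02 and 0.725 in JNKKO day 3. In JNKKO day 0 it was 0.518, 0.539 and 0.788, a range which the JNKKO day 3 libraries overlapped, and in JNKWT day 0 it was 1.16 and 0.652 in libraries 2 and 3 and 14 in library 1. The ratio thus lay within or near its day 0 range in JNKKO and below all day 0 libraries in JNKWT. The ratio of Acaca to Fasn was 0.112 to 0.127 in JNKWT day 3 and 0.428 to 0.708 in JNKKO day 3, around day 0 values of 0.316 to 0.359 in JNKWT and 0.171 to 0.336 in JNKKO. The ratio of Dgat2 to Dgat1 was 0.874 to 1.29 in JNKWT day 3 and 0.272 to 0.36 in JNKKO day 3. On day 0 it was 0.153 to 0.203 in JNKWT and 0.204, 0.195 and 0.498 in JNKKO, the highest in the library labelled JNKKO day 0 library 3. The ratio of Acsl4 to Acsl1 was 0.0309 to 0.0666 on day 0, 0.168 to 0.324 in JNKWT day 3 and 0.381 to 0.891 in JNKKO day 3.

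**Figure D4:**
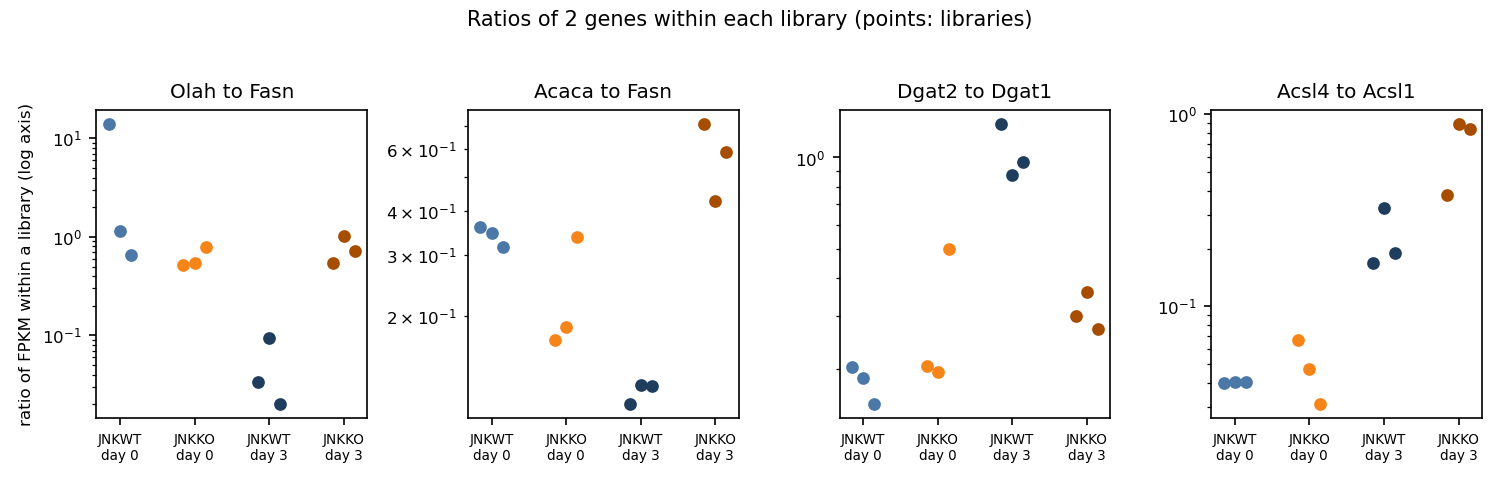
Ratio of the FPKM of 2 members within each library (log axis) in the 4 groups; each point is a library. The 4 ratios were formed after the values had been seen and were not tested. On day 3 the JNKWT and JNKKO points do not overlap in any of them. JNKKO lies above in Olah to Fasn (0.54 to 1.02 against 0.02 to 0.094), Acaca to Fasn and Acsl4 to Acsl1 and below in Dgat2 to Dgat1.

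Within the summed FPKM of the 37 genes, chain building took a smaller mean share on day 3 than on day 0, and Scd1 a larger one. Carboxylation and chain building took 30.5% ± 6.92 of the sum in JNKWT day 0 and 26.6% ± 1.19 in JNKKO day 0, then 9.98% ± 3.03 in JNKWT day 3 and 15.3% ± 5.91 in JNKKO day 3 (mean ± SD, n = 3). Scd1 alone took 20.2% ± 10.9 and 28.1% ± 7.09 on day 0 and 52.7% ± 5.62 and 45.1% ± 14.7 on day 3. Glycerolipid assembly went from 2.57% ± 0.244 to 7.01% ± 0.669 in JNKWT and from 2.68% ± 0.567 to 5.66% ± 0.743 in JNKKO. The 37 genes together made up 0.156% to 0.529% of the summed FPKM of a library on day 0 and 0.147% to 0.301% on day 3, where antigen receptor segments took 28.4% to 74.0%.

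**Figure D5:**
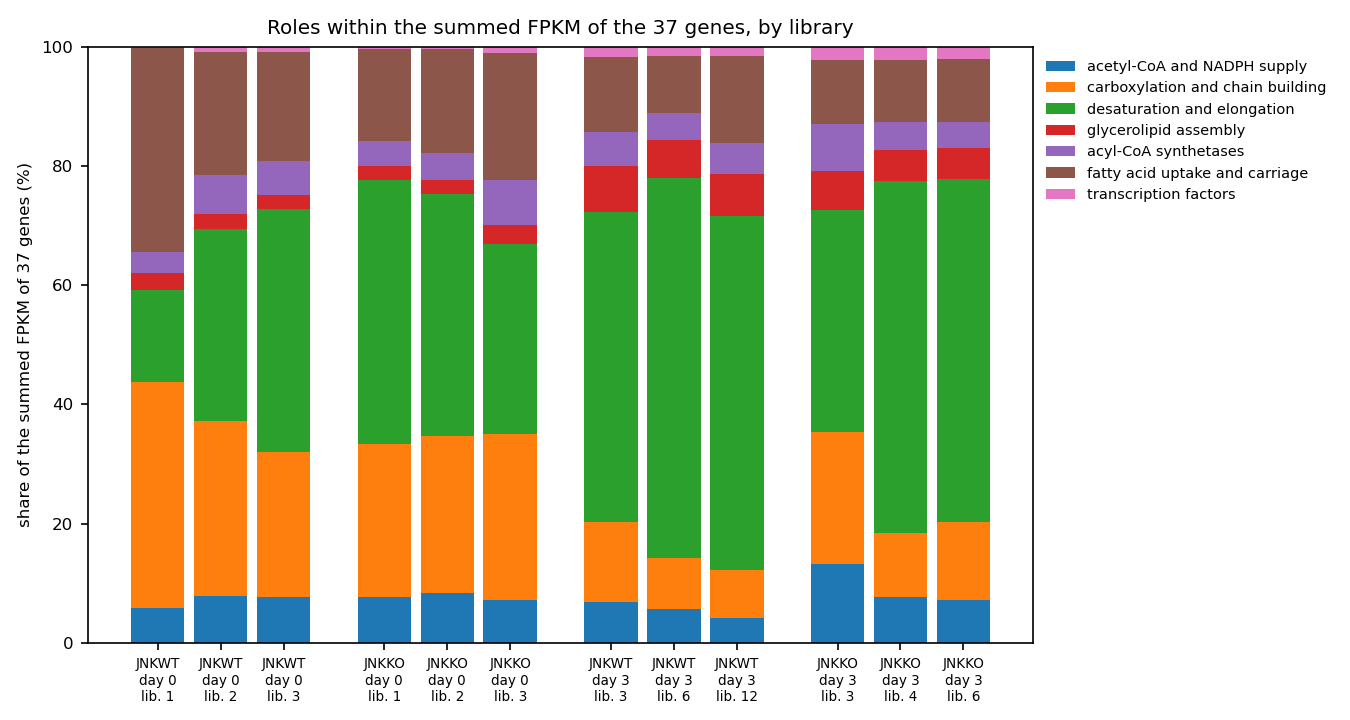
Share (%) of each of the 7 roles in the summed FPKM of the 37 genes, 1 bar per library, 3 libraries in each of the 4 groups. Carboxylation and chain building (orange) is larger in the day 0 bars than in the JNKWT day 3 bars, and desaturation and elongation (green) makes up 37.3% to 63.7% of the day 3 bars.

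The rest of the pathway was read from a list of 41 further genes, of which 37 were tested. As deposited 32 rose and 1 fell in JNKWT, where 91.5% of all genes were called higher, and 28 rose and 3 fell in JNKKO, where 80% were. After scaling 9 rose and 12 fell in JNKWT, beside 19.3% and 16.1% of all genes, and 8 rose and 8 fell in JNKKO, beside 11.5% and 9.55%. Insig1, which holds SREBP precursors back in the endoplasmic reticulum, fell in both genotypes, by 1.68 and 2.39 as deposited and by 4.16 and 4.14 after scaling. Slc25a1, the mitochondrial citrate carrier that feeds Acly, fell in JNKKO by 1.85 as deposited and by 3.61 after scaling, and in JNKWT by 3.27 after scaling. Slc27a1, a fatty acid transport protein, and Agpat9, a glycerol 3-phosphate acyltransferase, rose most in JNKWT (4.91 and 4.69 as deposited, 2.45 and 2.41 after scaling). In JNKKO, Mogat1, a monoacylglycerol acyltransferase, and Scd4, a further desaturase, rose most (4.35 and 3.71 as deposited). After scaling they gave 2.82 and 2.67, and the Mogat1 call (adjusted p = 0.0287) was lost without library 2 or 3 of JNKKO day 0 or library 3 or 6 of JNKKO day 3 (adjusted p from 0.0876 to 0.119) and with the luminal reference (1.56, adjusted p = 0.0998). On day 3, 5 of the 37 were lower in JNKKO as deposited and none higher, beside 5.62% and 0.544% of all genes. The calls were led by Agpat9 (-1.86, adjusted p = 0.0328) and Fabp5 (-1.83, adjusted p = 0.0322). The Agpat9 call was lost without any library of JNKWT day 3 or library 3 or 4 of JNKKO day 3 (adjusted p from 0.0585 to 0.155), and that of Fabp5 without library 2 of JNKKO day 0, any library of JNKWT day 3 or library 3 or 6 of JNKKO day 3 (adjusted p from 0.0507 to 0.152). After scaling only Hsd17b12, an elongation enzyme, was called, higher in JNKKO (1.18, adjusted p = 0.0304), beside 0.338% of all genes. Leaving out any day 3 library lost that call (adjusted p from 0.0604 to 0.144).

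Fatty acid oxidation, the opposite route, was read from a list of 15 genes. All 15 rose in JNKWT as deposited and 14 in JNKKO, where 91.5% and 80% of all genes were called higher. After scaling 7 rose in JNKWT, beside 19.3% of all genes, and 5 rose and 1 fell in JNKKO, beside 11.5% and 9.55%. Cpt1a, which admits long chains to mitochondria, rose by 5.30 and 3.94 as deposited and by 3.07 and 2.27 after scaling. With the luminal epithelial genes as the reference the scaled JNKKO value of Cpt1a was 0.92 and not called (adjusted p = 0.0846). Acadl, the long-chain acyl-CoA dehydrogenase, rose by 4.96 and 4.42, and by 2.48 and 2.66 after scaling. The medians of the list were 3.18 and 2.01 as deposited, above the 2.37 and 1.68 of all genes. On day 3, 4 of 15 were lower in JNKKO as deposited, beside 5.62% of all genes, and none after scaling. The deposited calls were led by Ppara (-2.44, adjusted p = 0.0485) and Hadh (-1.43, adjusted p = 0.0192). The Ppara call was kept only without library 1 or 2 of JNKWT day 0 or library 6 of JNKKO day 3 and lost in the other 9 fits that left out a library (adjusted p up to 0.192), and that of Hadh without library 3 or 6 of JNKWT day 3 or library 3 of JNKKO day 3 (adjusted p from 0.0653 to 0.115).

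Cell types that share these enzymes also differed between groups, and in a whole gland fewer cells of a type and less RNA per cell cannot be told apart. The summed FPKM of 12 adipocyte markers was 98.8 to 318 in JNKWT day 0, 111 to 205 in JNKKO day 0, 1906 to 5206 in JNKWT day 3 and 575 to 1353 in JNKKO day 3, with no marker at 0 in any library. On day 3, 4 of the 12 (Adipoq, Plin1, Pparg and Pck1) were called lower in JNKKO as deposited, beside 5.62% of all genes, and none was called after scaling. The scaled adipocyte sums still did not overlap on day 3, at 816 to 1862 in JNKWT and 417 to 709 in JNKKO. Between genotypes on day 3 the adipocyte sum was lower in JNKKO, as were Dgat2 and Vldlr, and the part of adipocytes in those differences was not tested. Within JNKWT day 3 the members went different ways. Dgat2 was lowest in library 6, where the adipocyte sum was lowest, and highest in library 3. Lpl and Cd36 had the order of the sum, lowest in library 6 and highest in library 12. Vldlr and Mlxipl were lowest (5.13 and 4.45 FPKM) in library 12, where the sum was highest. Of the 14 milk genes, 5 (Csn1s2b, Wap, Lalba, Glycam1 and Cel) were higher in JNKKO on day 3 as deposited, as Olah was, and 9 were not called. After scaling 2 were higher. The shares of all genes called higher were 0.544% as deposited and 0.338% after scaling. The summed FPKM of the milk genes was 40731 to 110607 in JNKWT and 233430 to 472032 in JNKKO. Within JNKKO day 3, library 3 had the highest milk share (39.1%) and library 6 the lowest (8.85%). As deposited, Olah was lowest in library 3 and highest in library 6. After scaling, Olah was 46.5, 35.2 and 36.6 in libraries 3, 4 and 6, highest in library 3. Within JNKWT day 3, library 12 had both the lowest milk share (1.61%) and the lowest Olah. Whether Olah followed the milk genes as a group was not tested. Of 10 luminal epithelial genes none was called between genotypes on day 3, with sums of 1306 to 1362 in JNKWT and 1182 to 1853 in JNKKO, and none was at 0. Macrophage markers summed to 1028 to 2298 and 397 to 943 FPKM and endothelial markers to 92.4 to 285 and 75.2 to 128, none called between genotypes. Skeletal muscle markers summed to 470 to 7093 FPKM in JNKWT day 3 and 15.1 to 136 in JNKKO day 3, with Ckm at 0 in a JNKKO library. As deposited 7 of 8 were called lower in JNKKO, beside 5.62% of all genes, and none was called after scaling. The scaled muscle sums still did not overlap, at 168 to 3037 in JNKWT and 8.84 to 66.4 in JNKKO. In library 12 of JNKWT day 3 the muscle sum was lowest in its group, at 470, and still above every JNKKO day 3 library. There Dgat2 stood at 62.2 FPKM and Olah at 4.70. The part of muscle in the differences between genotypes was not tested.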

How the data were processed

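RNA from pieces of mammary gland was purified on RNeasy columns, made into libraries with the NeoPrep kit and sequenced as paired reads. Per the submitters' processing notes, reads were aligned with Bowtie2 and TopHat2 2.0.14 to GRCm38 and assembled and quantified with Cufflinks 2.2.1 and Cuffdiff. The deposited values are FPKM that the authors computed for each library and gene model, with no read counts, so that the depth of a library is unknown and no counting interval is given. The table held 37756 gene models, of which 2 had no FPKM, 466 carried several symbols and 24 had a symbol turned into a date. Its 12 library columns were used through the genotype, day and number in their names. Day 3 columns carry numbers other than those of the labels, so single libraries are known only by column number. The deposited table also holds the authors' own fold changes and tests for day 3 against day 0 in JNKWT, which were not used.

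Genes at 0.5 FPKM or more in at least 3 of 12 libraries were tested on log2(FPKM + 0.1) with limma 3.58.1 (R 4.3.3), using a mean-variance trend, 1 model of the 4 groups and Benjamini-Hochberg adjustment over all genes tested, two-sided. Both scales, as deposited and after median ratio scaling, count as main results. The method was tested on simulated data. With 3 libraries against 3 an exact permutation test of a single gene cannot go below p = 0.1 and was not used. Alternatives were a pseudocount of 1, no filter, a filter at 1 FPKM in 6 libraries, no trend, 3 other scalings, a fit of the compared groups alone and leaving out each library, and, chosen after the data were seen, 2 pairs of libraries left out together. The members and lists were chosen with earlier results of these data known. By rule, values per library were given for members called between genotypes or in the interaction, for up to 3 members of a role called in the same direction on both scales with the largest changes, and for the 2 most abundant of a role, and up to 2 genes of a further list were named in each direction by size of change. Values of further members were added after they had been seen. Of the marker lists, Adgre1 and Acta1 were not matched in the table. The deposited loci of 8 members (Acss2, Agpat1, Agpat2, Elovl1, Fabp3, Lpin2, Lpin3 and Srebf1) are more than 1.5 times as long as the gene in GENCODE vM21.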

Additional observations from a re-analysis of the deposited data

How the results depend on the processing

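The counts of members called were recomputed under 22 alternatives. Among these, the share of all genes called was recorded only without library 1 of JNKWT day 0, as given above. The other counts therefore cannot be set against all genes. From day 0 to day 3 in JNKWT as deposited, 17 were called higher, 13 to 20 when a library was left out, and 4 lower, 3 to 12 when a library was left out (12 without library 1 of day 0), 9 without that library and library 12 of day 3, and 12 without it and library 3 of JNKKO day 0. In JNKKO, 10 higher became 10 to 12, and 8 lower became 6 to 12 when a library was left out and 14 both in the fit of the compared groups alone and without library 1 of JNKWT day 0 and library 12 of JNKWT day 3. After scaling, 5 higher in JNKWT became 4 to 7, 2 with luminal epithelial genes as reference and 3 in the fit of the compared groups alone, and 19 lower became 18 to 25. In JNKKO 1 higher became 0 to 3, 0 with the luminal reference, 2 in the fit of the compared groups alone and 2 and 3 without the first and the second pair of libraries, and 23 lower became 20 to 25, and 15 when scaled to a common total without milk genes and antigen receptor segments.

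Between genotypes on day 0 no member was called under any alternative. On day 3 as deposited, 1 higher became 1 to 2 when a library was left out and 2 without the second pair, and 2 lower became 0 to 15 when a library was left out: 15 without library 1 of JNKWT day 0, 4 without library 3 of JNKKO day 0, 0 without library 3 of either day 3 group, and 1 without library 6 of JNKWT or library 4 of JNKKO day 3. They were 8 with a pseudocount of 1, 7 in the fit of the compared groups alone, 7 without the first pair and 13 without the second. After scaling, 1 higher became 0 to 2, 0 with the luminal reference and 2 in the fit of the compared groups alone and without either pair, and 0 lower became 0 to 4, 3 in the fit of the compared groups alone, 3 without the first pair and 6 without the second. For the difference of the day changes, 0 higher and 0 lower as deposited became 0 to 1 and 0 to 2 when a library was left out, 1 and 2 with a pseudocount of 1 and 1 and 4 without the first pair, and after scaling 0 to 1 higher, and 2 higher and 1 lower without the first pair. The change of Fasn in JNKWT as deposited turned from 0.44 to -1.02 without library 1 of day 0, -1.01 without the first pair and -1.02 without the second, with a range of -1.02 to 1.26 when a library was left out. The causes were not tested.

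Of 119 single-gene results past the threshold, 83 kept their call under each alternative run, and of the alternative values of all 119, 2234 kept the call and direction, 148 lost the call and 0 turned direction. Of 54 not past it, 91 alternative values passed and 3, all of Fasn, turned. No paired analysis was possible because the day 3 columns of the table carry other numbers than the labels. A column therefore cannot be tied to a replicate number. Each library also came from its own mouse, and the study states no pairing of mice between groups. FPKM without read counts leave the depth behind low values unknown.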
